A study of Brachypodium distachyon with 35 samples.

Results

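BdbZIP54, BdbZIP63 and BdbZIP80 are 3 of the 96 basic leucine zipper (bZIP) genes whose transcript abundance was followed by real-time PCR (qPCR) in the grass Brachypodium distachyon, line Bd21-3. They are described jointly because the study pairs them with the rice genes OsbZIP14, OsbZIP65 and OsbZIP83, which it lists as responding to cold. The study set them beside rice for their cold response in these samples, so their cold values are a description. Their wells in the deposited table were found by the 28 fold changes that each gene shares with a single well, while any further well matched a gene in at most 1 of them. BdbZIP54 (bradi3g02980) lies on chromosome 3 from 1901143 to 1902688, has 0 introns and encodes 193 amino acids. BdbZIP63 (bradi3g22040) lies on the same chromosome from 21143026 to 21145398, has 1 intron and encodes 183 amino acids. BdbZIP80 (bradi4g26670) lies on chromosome 4 from 31762448 to 31767303, has 10 introns and encodes 464 amino acids. These positions come from the study's gene list, which does not name the genome build.

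Treated seedlings formed 3 classes. In the class of environmental factors, seedlings were kept at 4 °C (cold) or 45 °C (heat), or received H2O2 at 10 mM, PEG at 20% (polyethylene glycol, which withdraws water) or NaCl at 200 mM. These samples were taken after 1 h and 6 h. In the class of heavy metals, the salts were given at 0.05 mM for Cu, 0.5 mM for Zn, 1.0 mM for Mn, 0.07 mM for Cd and 0.75 mM for Pb, with sampling after 6 h and 24 h. In the class of phytohormones, salicylic acid (SA) was given at 1 mM, the cytokinin 6-BA at 20 µM, and abscisic acid (ABA) or the jasmonate MeJA at 100 µM, again with sampling after 1 h and 6 h. Root, stem, leaf and spikelet were also sampled, and untreated seedlings gave the controls CK1, CK2 and CK3. By the labels CK3 is the control of the heavy metals and of NaCl 6 h, CK2 that of both ABA and MeJA samples, and CK1 that of all other samples. They give an age of 20 days, or 40 days for spikelets, while the study's methods give younger ages for both. Every condition was 1 sample of the 35, and the column of PEG 1 h was left out because it repeated that of H2O2 6 h in all 97 rows.

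A bZIP protein binds DNA as a dimer: its basic region contacts the DNA and its leucine zipper holds the partners together. In plants this family takes part in responses to ABA, light, sugar, pathogens and temperature, and in flower development. BdbZIP80 is listed beside TGA9, an Arabidopsis member of the TGA factors. In Arabidopsis several TGA factors act with the coactivator NPR1 in salicylic acid signalling, and TGA9 acts in anther development. The products of BdbZIP54 and BdbZIP63 are short bZIP proteins, and no role is assigned to them here.

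A Ct is the number of PCR cycles needed to reach a set fluorescence, so a lower Ct stands for more template. The level of a gene was taken as the Ct of the reference gene BdGAPD, a glyceraldehyde-3-phosphate dehydrogenase gene, minus its own Ct in the same sample (–ΔCt, log2 scale). The log2 change (–ΔΔCt) was this level in a treated sample or organ minus that in the control of the labels, so that a positive value means more transcript than in the control. For the environmental factors and hormones the deposited fold changes run in the opposite direction and were not used as values. Over 34 samples the Ct of BdbZIP54 ran from 28.20 to 38.04 (median 31.04), that of BdbZIP63 from 21.39 to 30.49 (median 23.96) and that of BdbZIP80 from 24.93 to 36.24 (median 28.65). BdbZIP54 reached a Ct of 35 or more in 4 samples and BdbZIP80 in 1, where amplification is late and the values are less certain. With 1 sample a condition there was no replicate spread and no test. The only measure of error was the disagreement of 8 pairs of other genes listed with the same primers. From these pairs the wells had an SD of 0.97 in a single log2 change, or of 0.78 without the pair BdbZIP50 and BdbZIP51. It leaves out the error of BdGAPD and the variation between plants. The Ct of BdGAPD ran from 14.73 to 23.24, and an error in it moves all genes of a sample alike. In whole seedlings and organs, fewer cells with a transcript and less transcript per cell cannot be told apart.

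Under environmental factors all 3 genes were mostly above their controls. BdbZIP54 was at least 2-fold higher in 5 of 9 samples and BdbZIP63 in 7 of 9, as was BdbZIP80 in 5 of 9. Over all 96 genes, the share of gene-by-sample values that passed 2-fold upwards in this class was 19.0%, and 30.9% were at most 0.5-fold. The median log2 change was 1.07 for BdbZIP54, 1.77 for BdbZIP63 and 1.22 for BdbZIP80, against -0.20 over all values of the class. At most 0.5-fold was 1 value of the 3 genes, that of BdbZIP63 after 6 h of NaCl. With that sample set against CK1 in place of CK3, no value of the 3 genes was at most 0.5-fold. At least 2-fold higher were then 4 of 9 samples for BdbZIP54, 8 for BdbZIP63 and 6 for BdbZIP80. The median gene of that sample was at -2.02 against CK3 and at 0.225 against CK1. The shares above were taken with CK3, and none is given for another control. With the 3 controls averaged, BdbZIP80 passed 2-fold upwards in 0 of 9 samples and was at most 0.5-fold in 1, with a median of 0.16. BdbZIP63 then passed 2-fold upwards in 4 of 9, with a median of 0.92, and BdbZIP54 in 6 of 9, with 1.68. Of the 16 treated samples and organs assigned to CK1, 13 lay above it for BdbZIP54, 15 for BdbZIP63 and 16 for BdbZIP80. Values against CK1 were thus mostly positive whatever the treatment or organ.

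Cold was the treatment for which the genes were paired with rice. The signs given here are those of –ΔΔCt, opposite to those of the deposited fold changes. The log2 change of BdbZIP54 was 0.84 after 1 h and 1.12 after 6 h, the 20th and 15th highest of the 96 genes. BdbZIP63 had 1.77 and 1.72, at ranks 10 and 6, and BdbZIP80 had 2.10 and 1.55, at ranks 5 and 9. Thus 5 of the 6 cold values passed 2-fold, and 1 of them, that of BdbZIP80 after 1 h, lay beyond 2 SD of the wells (1.93). In the whole class of environmental factors 19.0% of the values of all 96 genes passed 2-fold upwards. No such share is given for cold alone or for 2 SD. The median gene stood at 0.08 and -0.02 in the cold samples. When the 3 controls were averaged, neither BdbZIP63 (0.26 and 0.21) nor BdbZIP80 (0.88 and 0.33) passed 2-fold, and BdbZIP54 did at both times (1.63 and 1.91).

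Heat gave larger changes than cold for BdbZIP54 and BdbZIP63 at both times, and smaller ones for BdbZIP80. The Ct of BdbZIP54 was 29.39 after 1 h and 29.41 after 6 h of heat, against 31.53 in CK1, and its log2 changes were 1.87 and 2.28. BdbZIP63 had Ct values of 22.82 and 23.14 in heat, against 25.65 in CK1, which gave 2.56 and 2.67. BdbZIP80 had Ct values of 28.32 and 28.59, against 29.81 in CK1, which gave 1.22 and 1.38. Heat was the treatment in which all 3 genes passed 2-fold at both times, while the median gene was at -0.52 and -0.37. With the 3 controls averaged, BdbZIP54 (2.66 and 3.07) and BdbZIP63 (1.05 and 1.16) still passed 2-fold in heat, and BdbZIP80 (0.00 and 0.16) did not. The differences between heat and cold in a gene ran within 2 SD of the wells and were not tested.

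H2O2 and PEG separated the genes. Relative to BdGAPD, BdbZIP54 stayed near its control in H2O2, with -0.38 at 1 h and 0.13 at 6 h. The BdGAPD Ct was 15.59 and 16.68 in these samples, against 17.90 in CK1. Without a reference gene BdbZIP54 had 1.93 and 1.35, both past 2-fold. BdbZIP63 had 0.52 after 1 h and 2.43 after 6 h, and BdbZIP80 the other order, 2.13 after 1 h and 0.18 after 6 h. After 6 h of PEG, BdbZIP63 had a log2 change of 2.84, the 2nd highest of the 96 genes, with a Ct of 22.35 in PEG against 25.65 in CK1. BdbZIP54 had 1.07 and BdbZIP80 0.29 in the same sample. With the 3 controls averaged, BdbZIP63 had -0.99 and 0.92 in H2O2, and BdbZIP80 had 0.91 and -1.04. In PEG they then had 1.33 and -0.93, and BdbZIP54 had 1.86.

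With NaCl the direction of BdbZIP63 and BdbZIP80 after 6 h depended on the control. After 1 h, against CK1, the log2 changes were -0.20 for BdbZIP54, 1.53 for BdbZIP63 and 0.50 for BdbZIP80, and the median gene was at 0.62. After 6 h, against CK3, they were 2.80, -1.32 and -0.45, with the median gene at -2.02. Set against CK1 like the earlier time, the 6 h sample gave 0.89 for BdbZIP54, 2.59 for BdbZIP63 and 1.98 for BdbZIP80, with the median gene at 0.23. The deposited fold-change column of this sample is headed with CK3. It follows the Ct difference to CK1 in 92 of 96 wells and that to CK3 in 4. The 16 other columns of environmental factors and hormones follow their own control in 90 to 94 wells. The deposited ratio was thus made against CK1 despite its heading, and which control belongs to these plants is not settled. The level itself, which needs no control, was higher after 6 h than after 1 h by 1.09, 1.06 and 1.48 in the same order of genes.

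**Figure D1:**
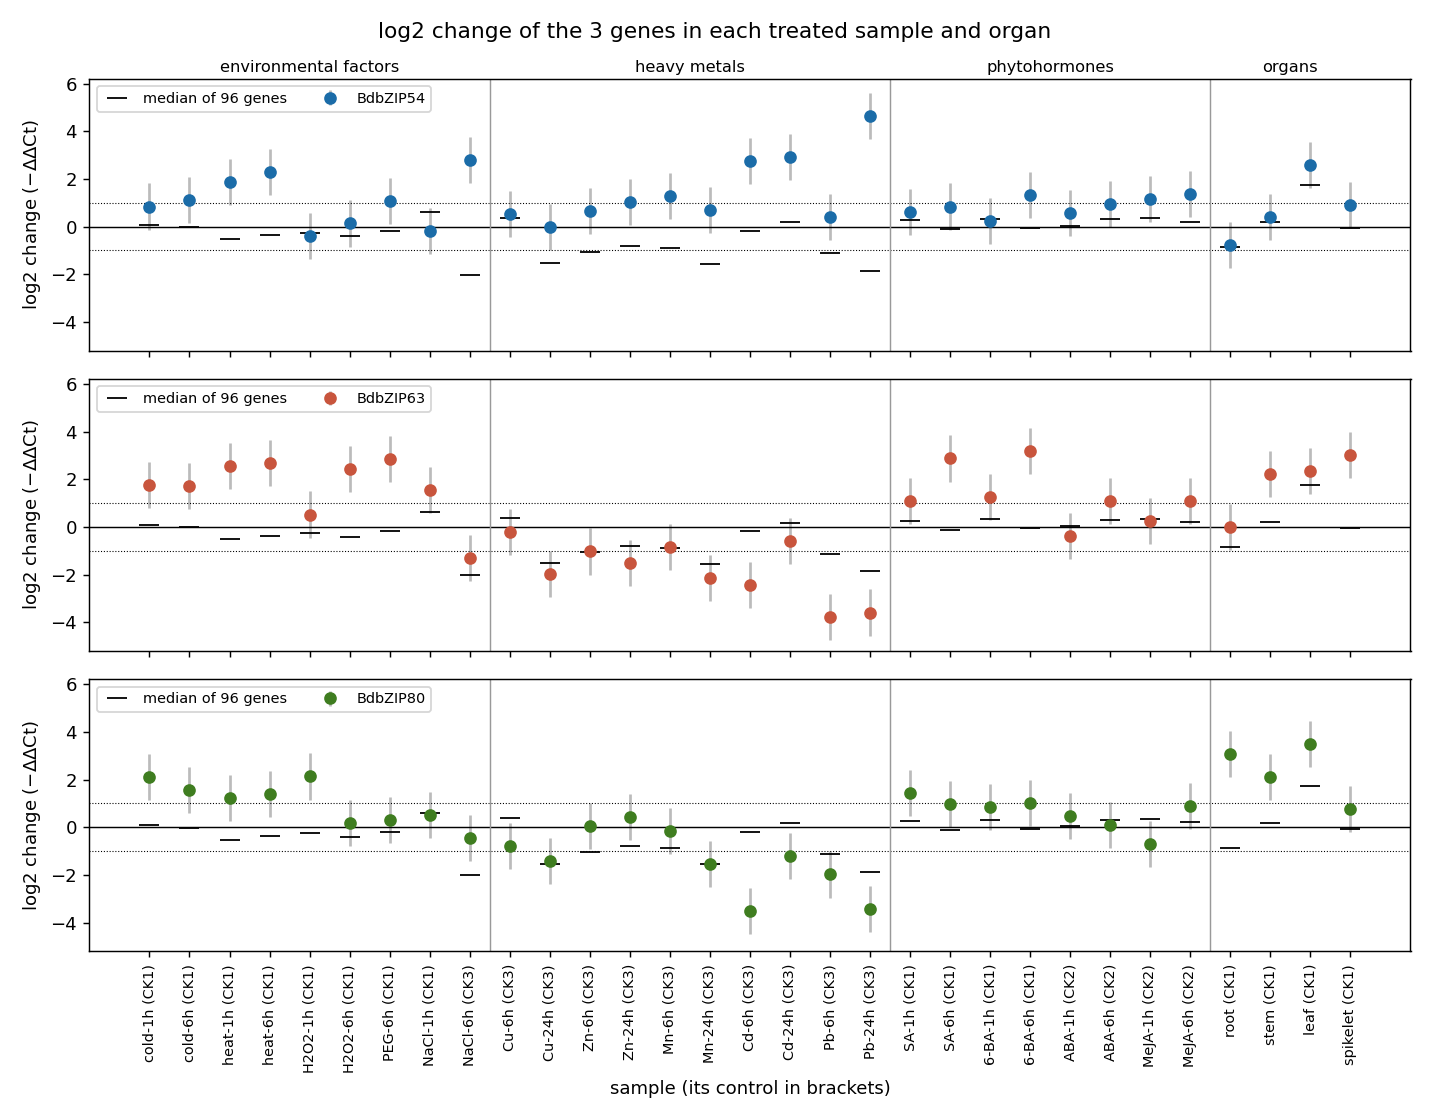
Log2 change (–ΔΔCt) of BdbZIP54, BdbZIP63 and BdbZIP80 in 27 treated samples and 4 organs against the control of the labels, 1 sample each. Grey bars are the SD of the wells from same-primer gene pairs (0.97), dotted lines mark 2-fold and 0.5-fold, and black dashes are the median of the 96 genes in the sample. BdbZIP54 lies at or above 0 in all heavy-metal samples, whereas BdbZIP63 lies below 0 in all 10 of them.

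Under heavy metals the genes parted. BdbZIP54 was above CK3 in 9 of 10 samples and equal to it in the other one, Cu 24 h, and was at least 2-fold higher in 5. BdbZIP63 was below CK3 in all 10 samples and at most 0.5-fold in 7, and BdbZIP80 was below CK3 in 8 and at most 0.5-fold in 6. Over all 96 genes, 12.9% of the values passed 2-fold upwards, while 47.0% were at most 0.5-fold, so lower values were common in this class. The medians were 0.85 for BdbZIP54, -1.74 for BdbZIP63 and -1.31 for BdbZIP80, against -0.865 over all values of the class.

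Pb and Cd held the largest differences. After 24 h of Pb, BdbZIP54 had a Ct of 31.60, against 35.62 in CK3, and its log2 change of 4.64 was the highest of the 96 genes in that sample. In the same sample BdbZIP63 had -3.59 (Ct 28.13, against 23.92 in CK3) and BdbZIP80 had -3.41 (Ct 33.59, against 29.56 in CK3). After 6 h of Pb the log2 changes were 0.39 for BdbZIP54, with a Ct of 38.04 at the late end, -3.76 for BdbZIP63 and -1.98 for BdbZIP80. With Cd, BdbZIP54 had 2.74 after 6 h and 2.93 after 24 h, whereas BdbZIP63 had -2.42 and -0.59. The Ct of BdbZIP54 was late after 6 h of Cd (36.04) and in CK3 (35.62), the control of all metal samples. BdbZIP80 had -3.52 after 6 h of Cd, the lowest of the 96 genes but from a late Ct of 36.24, and -1.20 after 24 h. The BdGAPD Ct was 23.24 and 22.04 in Cd and 22.89 and 20.70 in Pb, against 20.08 in CK3. Without a reference gene BdbZIP54 had -0.42 after 6 h and 0.97 after 24 h of Cd, neither of them past 2-fold.

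Cu, Zn and Mn gave mostly smaller changes. BdbZIP54 had 0.51 and 0.00 after 6 h and 24 h of Cu, 0.66 and 1.02 with Zn and 1.28 and 0.68 with Mn. BdbZIP63 had -0.21 and -1.97 with Cu, -1.03 and -1.51 with Zn and -0.84 and -2.16 with Mn, close to the median gene, from which it differed by between -0.70 and 0.04 in these 6 samples. BdbZIP80 had -0.78 and -1.42 with Cu, 0.05 and 0.43 with Zn and -0.16 and -1.54 with Mn. Its Zn values were the only metal values of BdbZIP80 above 0, at ranks 13 and 11 of the 96 genes.

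The heavy-metal values rest on CK3, which differed from the other controls. The level of BdbZIP54 was -15.54 in CK3, -14.08 in CK2 and -13.63 in CK1. BdbZIP63 went the other way, with -3.84 in CK3, -7.13 in CK2 and -7.75 in CK1, and BdbZIP80 likewise with -9.48, -10.68 and -11.91. CK3 was thus the sample with the highest level of BdbZIP63 among all 34 and, jointly with Cu 24 h, with the lowest of BdbZIP54. The median of the 96 genes was 2.59 higher in CK3 than in CK1 and 2.72 higher than in CK2. Set against CK1, the metal samples had medians of -1.06 for BdbZIP54, 2.17 for BdbZIP63 and 1.12 for BdbZIP80, with 3, 10 and 8 of 10 samples above CK1. Against CK2 the medians were -0.61, 1.55 and -0.11. The direction in the metal class therefore depended on the control in all 3 genes, and treatment and control plants of another set cannot be told apart in such a comparison.

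The distance in Ct between a pair of these genes within a sample needs neither BdGAPD nor a control. Only its differences between samples were used, since the efficiencies of the primers are not given in the sources used here. The Ct of BdbZIP54 minus that of BdbZIP63 ran from 3.47 to 10.98 (median 8.86) in the 11 samples assigned to CK3, against 11.70 in CK3 itself, so that all 11 lay below their control. In the 16 treated samples and organs of CK1 it ran from 5.65 to 8.18 (median 6.85), against 5.88 in CK1, with 1 sample below. In the 4 samples of CK2 it ran from 5.99 to 7.07, against 6.95 in CK2. CK3 had the largest distance of all 34 samples and Pb 24 h the smallest. BdbZIP54 minus BdbZIP80 gave the same picture for CK3, from -1.99 to 5.47 in its samples, against 6.06 in CK3. In this pair 5 of the 16 samples of CK1 and all 4 of CK2 also lay below their control. BdbZIP63 minus BdbZIP80 did not set CK3 apart, with -6.74 to -3.70 in its samples, against -5.64 in CK3. Of all 34 samples this pair lay closest in root, at -1.08, and furthest apart after 6 h of Cd, at -6.74.

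**Figure D2:**
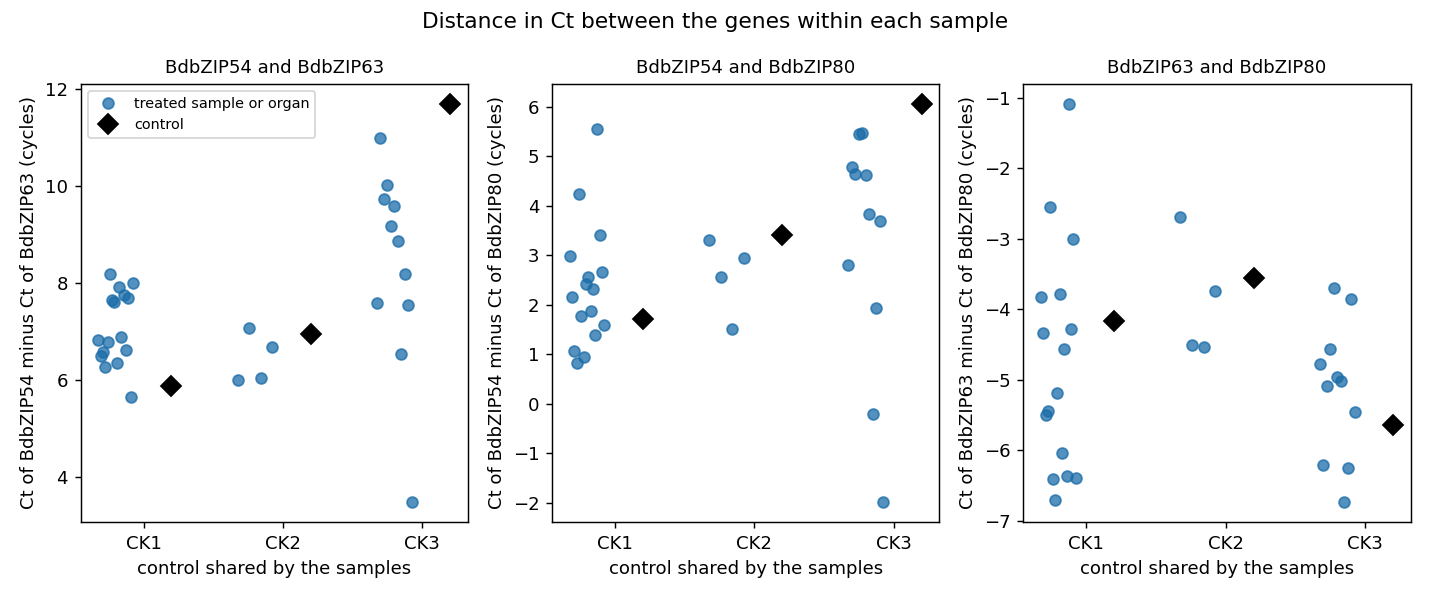
Distance in Ct (cycles) between BdbZIP54, BdbZIP63 and BdbZIP80 within each of the 34 samples, grouped by the control that the samples share. Circles are treated samples or organs and diamonds are the controls. For BdbZIP54 minus BdbZIP63 the control CK3 (11.70) lies above all 11 of its samples, and CK1 (5.88) lies below all but 1 of its 16.

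With the phytohormones most values lay above the controls again. BdbZIP54 was above its control in 8 of 8 samples, between 0.24 and 1.37, and passed 2-fold in 3. Without a reference gene it was above in 5 of 8, with -1.46 after 6 h of ABA and -0.82 and -1.35 after 1 h and 6 h of MeJA. BdbZIP63 passed 2-fold in 6 of 8 samples and BdbZIP80 in 2, and no value of the 3 genes was at most 0.5-fold. Of all gene-by-sample values in this class 21.5% passed 2-fold upwards, and 14.1% were at most 0.5-fold. The medians were 0.895 for BdbZIP54, 1.09 for BdbZIP63 and 0.875 for BdbZIP80, against 0.19 over all values. When the 3 controls were averaged, the median of BdbZIP63 was -0.04.

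BdbZIP63 had its highest hormone values with SA and 6-BA. Its Ct after 6 h of 6-BA was 22.37, against 25.65 in CK1, and its log2 change of 3.20 was the 3rd highest of the 96 genes. After 6 h of SA it had 2.87, at rank 5, while after 1 h the values were 1.08 for SA and 1.25 for 6-BA. ABA gave BdbZIP63 a log2 change of -0.38 after 1 h and 1.07 after 6 h, and MeJA 0.26 and 1.10. For BdbZIP80, the relative of TGA factors, SA gave 1.45 after 1 h and 0.99 after 6 h, and 6-BA gave 0.84 and 1.00. ABA left BdbZIP80 at 0.48 and 0.11, and MeJA at -0.72 and 0.91, the first of these at rank 93. ABA and MeJA were set against CK2, where the level of BdbZIP80 was 1.23 higher than in CK1. Its levels after 1 h and 6 h were -10.46 and -10.92 in SA, -10.20 and -10.57 in ABA and -11.40 and -9.77 in MeJA. With the 3 controls averaged, BdbZIP80 passed 2-fold in 0 of 8 hormone samples, with a median of -0.05. BdbZIP54 had its highest hormone values with MeJA at 6 h (1.37), 6-BA at 6 h (1.34) and MeJA at 1 h (1.17). None of the hormone values of BdbZIP54 or BdbZIP80 lay beyond 2 SD of the wells.

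Each treatment but PEG had an earlier and a later sample, whose levels can be compared without the control. BdbZIP54 was higher at the later time in 11 of 13 treatments, BdbZIP63 in 9 and BdbZIP80 in 6. These differences were at least 2-fold for BdbZIP54 in 3 treatments, for BdbZIP63 in 8 and for BdbZIP80 in 6. Beyond 2 SD of the wells were 4 of the 39 differences. Over all 96 genes and the same treatments, 45.0% of the differences were higher at the later time, 36.2% were at least 2-fold in either direction and 14.4% lay beyond 2 SD. BdbZIP54 was higher by 4.25 at 24 h than at 6 h of Pb, and BdbZIP80 by 2.32 at 24 h than at 6 h of Cd. BdbZIP63 was higher by 1.95 at 6 h than at 1 h of 6-BA, and for BdbZIP80 the 6 h level minus the 1 h level was -1.95 with H2O2. Relative to the median gene of each sample these differences were 5.01, 2.10, 2.76 and -1.80 in the same order. The Ct at 6 h was late for BdbZIP54 in Pb (38.04) and for BdbZIP80 in Cd (36.24). The SD of the wells comes from other genes and may not cover the error of such late values. With cold and heat the differences of the 3 genes lay between -0.55 and 0.41, and with Zn between -0.48 and 0.38.

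**Figure D3:**
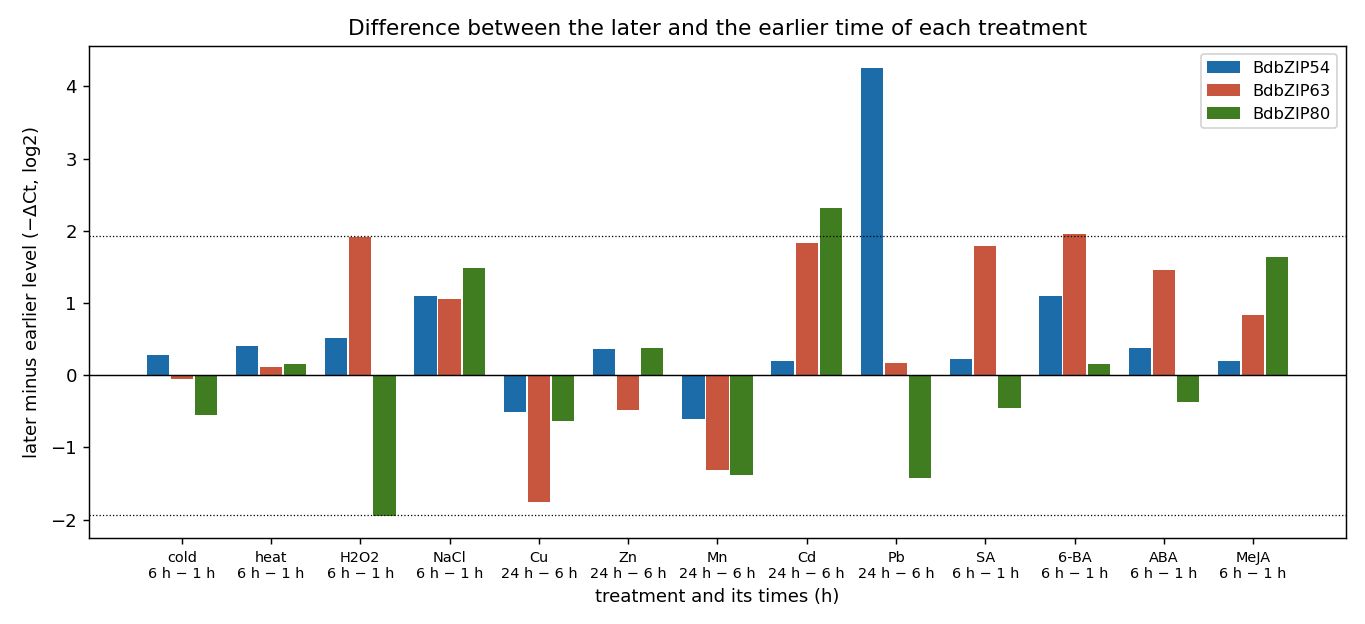
Level at the later time minus level at the earlier time (–ΔCt, log2) in the 13 treatments with both times, for BdbZIP54, BdbZIP63 and BdbZIP80. Bars start at 0 and dotted lines mark 2 SD of the wells (1.93 in either direction). BdbZIP54 with Pb stands out at 4.25, from a late Ct of 38.04 at 6 h, and BdbZIP63 is higher at the later time with all 4 hormones.

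In the organs each gene had its own order. The level of BdbZIP54 was -11.05 in leaf, -12.74 in spikelet, -13.22 in stem and -14.39 in root, against -13.63 in CK1. Leaf exceeded stem by 2.17 and root by 3.34, both beyond 2 SD of the wells, and neighbours in this order differed by at most 1.69, within it. BdbZIP63 had -4.75 in spikelet, -5.40 in leaf, -5.53 in stem and -7.77 in root, against -7.75 in CK1. Spikelet, leaf and stem differed by no more than 0.78 from each other, and each exceeded root by 2.24 or more. BdbZIP80 had -8.40 in leaf, -8.85 in root, -9.81 in stem and -11.15 in spikelet, against -11.91 in CK1. Leaf and root exceeded spikelet by 2.75 and 2.30, and the other differences lay within 2 SD.

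Relative to CK1, the log2 changes over root, stem, leaf and spikelet were -0.76, 0.41, 2.58 and 0.89 for BdbZIP54, of which 1 passed 2-fold. BdbZIP63 had -0.02, 2.22, 2.35 and 3.00, and BdbZIP80 had 3.06, 2.10, 3.51 and 0.76, each with 3 of 4 organs past 2-fold. For BdbZIP80 all 4 organs lay above CK1, also root, stem and leaf, which have the same labelled age as these seedlings. A trait of the organs and one of the CK1 sample cannot be told apart in these changes. With the 3 controls averaged, BdbZIP63 passed 2-fold upwards in 1 organ and was at most 0.5-fold in 1, root (-1.53), and BdbZIP80 passed in 2. Against CK1 no organ value was at most 0.5-fold. Over all genes 36.7% of the organ values passed 2-fold upwards against CK1, and 23.4% were at most 0.5-fold. The median gene was 1.74 above CK1 in leaf and 0.85 below it in root (a log2 change of -0.85), so leaf was high for most genes. After subtracting it, leaf no longer led for any of the 3 genes. BdbZIP80 then had its highest value in root, with 3.91, and 1.91, 1.77 and 0.81 in stem, leaf and spikelet. BdbZIP63 had its highest in spikelet, with 3.06, then 2.03 in stem, 0.83 in root and its lowest, 0.61, in leaf, and BdbZIP54 lay between 0.09 and 0.94 in all 4 organs. BdbZIP80 in root ranked 8th of the 96 genes and BdbZIP63 in spikelet 10th.

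**Figure D4:**
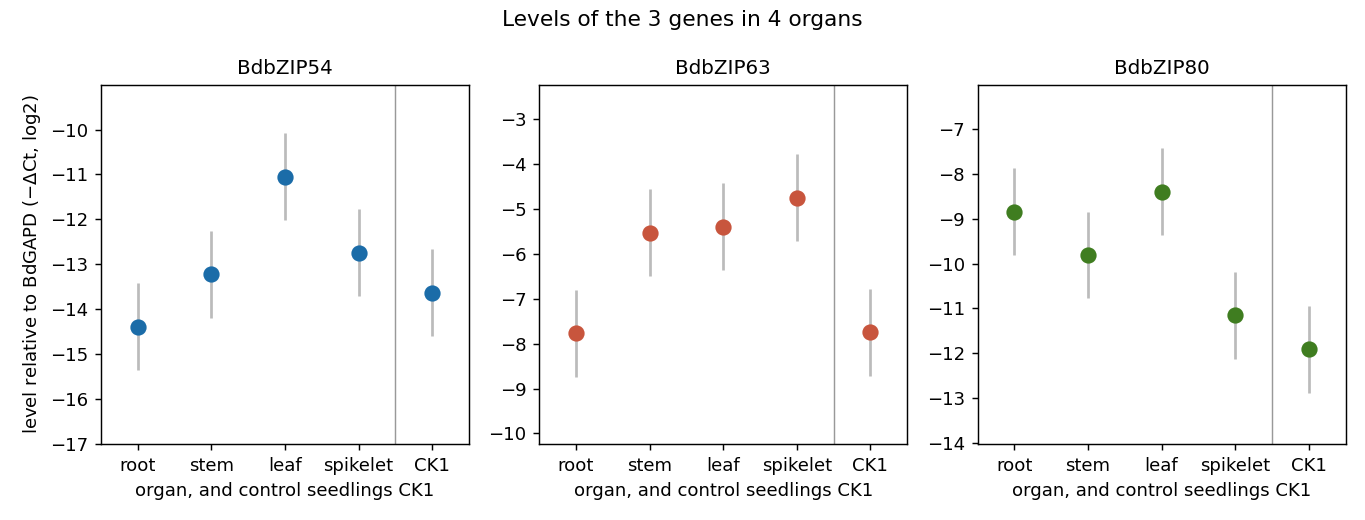
Level relative to BdGAPD (–ΔCt, log2) of BdbZIP54, BdbZIP63 and BdbZIP80 in root, stem, leaf and spikelet, and in the control seedlings CK1, 1 sample each, with the SD of the wells (0.97) as grey bars. This SD is that of a log2 change, a difference between a sample and its control, and not that of a single level. Each panel spans 8 log2 units. On this scale BdbZIP63 is lowest among organs in root (-7.77) and BdbZIP80 is lowest among organs in spikelet (-11.15).

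The 3 genes did not change alike in every sample. Of 27 treated samples, all 3 were at least 2-fold higher in 4, namely cold at 6 h, heat at 1 h and 6 h and 6-BA at 6 h, and all 3 were at most 0.5-fold in none. Their log2 changes had the same sign in 12 samples. No share over other sets of 3 genes is given, so whether these counts are few or many is not known. As a description of likeness, the Pearson r was taken over 34 samples between the levels less the median of the 96 genes in each sample, which removes BdGAPD. The 34 points fall into sets that share a control, and the r carries no test. It was 0.62 for BdbZIP54 and BdbZIP63, 0.56 for BdbZIP54 and BdbZIP80 and 0.54 for BdbZIP63 and BdbZIP80, against a median of 0.11 over the 4560 pairs of genes. Within the 17 samples of CK1, the control included, the values were 0.75, 0.19 and -0.04. Within the 12 samples of CK3 they were 0.11, 0.02 and 0.70, so none of the 3 pairs reached its overall r within both sets.

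The genes most like each member by this r were others. For BdbZIP54 they were BdbZIP39 (0.87), BdbZIP40 (0.82) and BdbZIP74 (0.80). BdbZIP39 was also like it within the samples of CK1 (0.65) and of CK3 (0.69). For BdbZIP40 and BdbZIP74 the r within the samples of CK1 was -0.05 for each, and both reached a Ct above 39 (39.75 and 39.59). For BdbZIP63 the most alike were BdbZIP5 (0.78), BdbZIP30 (0.78) and BdbZIP45 (0.74), with r between 0.57 and 0.76 within either set of samples. For BdbZIP80 they were BdbZIP49 (0.82), BdbZIP81 (0.82) and BdbZIP74 (0.73). BdbZIP49 shares its listed primers with BdbZIP48, so its signal cannot be told apart from that gene's.

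BdbZIP81 (bradi4g27100) lies near BdbZIP80 on chromosome 4, from 32144473 to 32152246, with the same 10 introns, and is listed beside Arabidopsis TGA10. It had a median log2 change of 1.95 under environmental factors, where 8 of 9 samples passed 2-fold, -1.01 under heavy metals, 1.40 with phytohormones and 0.81 in organs. The signs by class were those of BdbZIP80, and also those of BdbZIP63. BdbZIP82 (bradi4g27720) is listed by the study as syntenic with BdbZIP63. Its medians were 0.20, -1.49, 0.20 and 0.42 in the same order of classes, again with the signs of BdbZIP80. Its r with BdbZIP80 was -0.38 over all samples. With BdbZIP63 its r was -0.12 over all samples, 0.56 within those of CK1 and -0.48 within those of CK3.

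Intron patterns group the bZIP genes by where introns interrupt the bZIP region. BdbZIP80 is 1 of 13 genes of pattern e, whose medians per gene had a median of 0.01 under environmental factors, -1.13 under heavy metals, -0.02 with phytohormones and 0.54 in organs. Of these 13 genes, 4 had a median at least 2-fold higher under environmental factors against 14 of all 96 genes, and 10 a median at most 0.5-fold under heavy metals, against 46 of 96. In the other direction 2 of the 13 were at most 0.5-fold under environmental factors, against 24 of 96, and 1 was at least 2-fold higher under heavy metals, against 6 of 96. BdbZIP80 was the 4th, 9th, 4th and 2nd highest of them in the 4 classes. The highest of the list were BdbZIP24 under environmental factors (1.99) and with hormones (1.48) and BdbZIP34 under metals (1.85) and in organs (4.12). The lowest were BdbZIP96 with hormones (-1.50) and BdbZIP18 in the other classes (-1.44 under environmental factors, -2.03 under metals and -0.95 in organs).

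BdbZIP54 and BdbZIP63 are 2 of the 27 genes of pattern h, whose medians had a median of -0.10 for the environmental class, -0.57 for metals, 0.20 for hormones and 0.65 for organs. BdbZIP63 was the highest of them under environmental factors (1.77), the 21st under heavy metals, the 3rd with phytohormones and the 8th in organs. BdbZIP54 was the 4th, 3rd, 4th and 14th. At least 2-fold higher were 4, 2, 3 and 10 of the 27 medians, and at most 0.5-fold were 7, 13, 5 and 3. Of all 96 medians, 14, 6, 14 and 26 were at least 2-fold higher and 24, 46, 9 and 17 at most 0.5-fold. The other extremes were BdbZIP14 (-2.19) under environmental factors, BdbZIP17 (2.39) and BdbZIP28 (-3.11) under metals, BdbZIP44 (1.62) and BdbZIP52 (-1.98) with hormones, and BdbZIP44 (5.33) and BdbZIP88 (-2.79) in organs. Over all 96 genes the medians were -0.165, -0.9225, 0.1775 and 0.0025 in the order of classes, and neither list was tested against them.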

How the data were processed

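Expression of 96 BdbZIP genes and BdGAPD had been measured by qPCR with SYBR Green in 35 samples, 1 per condition. The labels state that the qPCR was repeated, and how the repeats were combined into 1 Ct is not given in the sources used here. The Ct values were used as deposited by the authors, with no normalization. The deposited fold changes, ratios that the authors made from the Ct values, are their own comparisons and served only to join wells to genes. In 16 columns of environmental factors and hormones they follow 2 raised to the treated minus the control Ct, without BdGAPD, in 90 to 94 of 96 wells (within 0.1 on the log2 scale), which is opposite in direction to –ΔΔCt. Of 10 heavy-metal columns, 5 follow –ΔΔCt in all 96 wells. The third deposited table, of normalized values, was not used. 

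Each of the 96 genes shared all 28 stress fold changes of the study's supplementary table with 1 well. The study's organ table pairs names with other wells and matched this join for 1 gene. Over 8 pairs of genes listed with the same primers, the median Ct difference was 0.26 to 1.38 cycles with the wells of the stress table and 1.24 to 13.6 with those of the organ table, so the stress table was used throughout, organs included.

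From Ct, –ΔCt, –ΔΔCt against the control of the labels, ranks, class medians and Pearson r were computed in Python 3.11.15 (numpy 2.4.6, pandas 2.3.3, matplotlib 3.10.9). Thresholds were 2-fold and 0.5-fold. The arithmetic was tested on simulated Ct values. Ct carries no count, so no depth or counting interval is known. No test was run, since every condition has 1 sample and classes pool different treatments. Genes were named by a rule: the 3 genes, BdGAPD, the 3 genes most like each by r, BdbZIP81, BdbZIP82 and the extremes of intron patterns e and h. BdbZIP50 and BdbZIP51 and the same-primer gene BdbZIP48 are named for the precision only. The members and lists were chosen with earlier results of these data known. Alternatives changed the control, the reference, the threshold, the statistic, the times and the measure of likeness.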

Additional observations from a re-analysis of the deposited data

Results flagged for a closer look

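Among treatments whose earlier and later samples share a control, a gene lay on opposite sides of it at the 2 times in 3 cases. With NaCl, whose times have different controls, the log2 changes of all 3 genes also changed sign and are not counted here. With H2O2, BdbZIP54 was at -0.38 (log2 change) at 1 h and at 0.13 at 6 h, 0.51 apart. With ABA, BdbZIP63 was at -0.38 at 1 h and at 1.07 at 6 h, 1.45 apart. With MeJA, BdbZIP80 was at -0.72 at 1 h and at 0.91 at 6 h, 1.63 apart. Each difference was smaller than 2 SD of the wells (1.93), and none was tested.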

How the results depend on the processing

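No paired analysis was possible because every condition has 1 sample. When the 3 controls were averaged, the median log2 change of BdbZIP63 reversed under heavy metals to 0.66 and with phytohormones to -0.04, and was 0.78 in organs. BdbZIP54 had -0.27 under heavy metals, and BdbZIP80 had 0.16 under environmental factors, -0.10 under heavy metals and 1.36 in organs. Single values past 2-fold that reversed were, for BdbZIP63, NaCl 6 h (1.08), Cu 24 h (0.43), Zn 6 h (1.37), Zn 24 h (0.89), Mn 24 h (0.24), SA 1 h (-0.43) and 6-BA 1 h (-0.26), for BdbZIP54, Zn 24 h (-0.10), and for BdbZIP80, Cd 24 h (0.01) and 6-BA 6 h (-0.22). At most 0.5-fold were then 1 of 27 treated samples for BdbZIP54 and 3 for BdbZIP63, and BdbZIP80 had 3 higher and 3 lower.

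Without a reference gene, medians were 2.10 for BdbZIP54 under heavy metals and, for BdbZIP63, 2.83 under environmental factors and -0.605 under heavy metals. Of the single values past 2-fold, those of BdbZIP54 reversed in Cd 6 h (-0.42), MeJA 1 h (-0.82) and MeJA 6 h (-1.35). Those of BdbZIP63 reversed in NaCl 1 h (-0.03), NaCl 6 h (1.5), Zn 6 h (0.82), ABA 6 h (-1.34) and MeJA 6 h (-1.62), and those of BdbZIP80 in Cu 24 h (0.34) and Mn 24 h (0.40). Values within 2-fold also changed sign and are not all listed. Among them were BdbZIP54 in Pb 6 h (0.39 to -2.42) and BdbZIP80 in NaCl 6 h (-0.45 to 2.37). BdbZIP54 was then at most 0.5-fold in 4 samples, and BdbZIP80 at least 2-fold higher in 13.

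With the median Ct of the 96 genes as reference, medians under heavy metals were 2.11 for BdbZIP54, -0.675 for BdbZIP63 and -0.19 for BdbZIP80, and in organs 1.185 for BdbZIP63 and 1.60 for BdbZIP80. Of the single values past 2-fold, BdbZIP63 in NaCl 6 h (1.455) and BdbZIP80 in Cu 24 h (0.125) reversed. Values within 2-fold also changed sign, among them BdbZIP80 in NaCl 6 h (-0.45 to 2.325). The level of BdbZIP80 in leaf less the mean of the organs became -0.31. BdbZIP63 was at most 0.5-fold in 4 samples and BdbZIP80 in 3. BdbZIP63 in NaCl 6 h was 2.59 against CK1. Of 93 log2 changes, 28 moved by less than 1 SD of the wells with the mean of the controls, 33 without a reference gene and 72 with the median Ct.

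At a threshold of 2 SD of the wells, 5 samples were higher for BdbZIP54, 6 higher and 5 lower for BdbZIP63, and 2 higher and 3 lower for BdbZIP80. No share over all genes is given for log2 changes past this threshold, nor for the counts with other controls or references. Whether these counts are few or many is therefore not known. With BdGAPD in place of the sample median, r was 0.017 for BdbZIP54 and BdbZIP63, -0.20 for BdbZIP54 and BdbZIP80 and 0.24 for BdbZIP63 and BdbZIP80. Over treated samples only, as log2 changes, it was -0.28 for BdbZIP54 and BdbZIP63, -0.24 for BdbZIP54 and BdbZIP80 and 0.67 for BdbZIP63 and BdbZIP80. Restricting r to samples of one control was chosen after seeing the data. It gave 0.19 (BdbZIP54 and BdbZIP80) and -0.035 (BdbZIP63 and BdbZIP80) for CK1, and 0.11 (BdbZIP54 and BdbZIP63) and 0.024 (BdbZIP54 and BdbZIP80) for CK3. Class medians at the earlier or the later times only, and means in place of medians, moved by less than 1 SD of the wells. The causes of these shifts were not tested. The limits of these data are 1 sample a condition, a single reference gene and late Ct values of BdbZIP54 in CK3 and some metal samples.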
